A study of Mus musculus with 12 samples.

Results

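Gene expression in the brain of Notch knockout and wildtype mice was compared over both prenatal treatments by RNA sequencing. All 12 libraries of the series entered the comparison, 6 knockout against 6 wildtype, and the test covered every gene with enough counts. The series describes the tissue as adult forebrain and the knockout as conditional. The groups were 3 libraries labelled htr3a Notch KO with valproic acid, 3 labelled htr3a Notch KO without it, 3 labelled WT with valproic acid and 3 labelled WT without it. Valproic acid, an antiepileptic drug and histone deacetylase inhibitor, was given before birth. Each knockout group had a wildtype group of the same treatment, and treatment was a term in the fit, so the question was what differed between genotypes on average. No group was labelled as carrying a driver or other allele without the knockout. The Notch deletion therefore cannot be told apart from any other difference between knockout and wildtype mice. Which Notch gene was deleted, in which cells and by which driver, the valproic acid dose, and the age and sex of the mice were not given in the sources used here. Libraries were not stated to come from separate animals, so the p-values measure the spread between libraries, which may be technical.

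Notch receptors are cell surface proteins that are cut when a ligand of the Delta or Jagged type on a neighbouring cell binds them. The freed intracellular part joins the DNA-binding protein Rbpj and switches on genes of the Hes and Hey families. In the adult brain the pathway is known for holding neural stem cells quiet and for its roles in astrocytes, blood vessels and neurons. Htr3a, the gene named in the genotype label, encodes the obligatory subunit of the serotonin-gated 5-HT3 ion channel and marks cortical interneurons that arise in the caudal ganglionic eminence.

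Total counts were 18935991 to 22494104 in knockout with valproic acid, 16887885 to 21840608 in unexposed knockout, 20279003 to 24155672 for WT with valproic acid, and 18139178 to 24944681 for unexposed WT. Levels are given as counts-per-million (CPM) scaled by TMM factors, which are not corrected for gene length, so levels are compared between libraries and not between genes. All 12 upper-layer cortex markers and all 20 striatal projection neuron markers were measured, with summed levels of 843 to 1100 CPM and 2160 to 3470 CPM over the libraries. Xist, the RNA of the inactive X chromosome, had 6 and 12 counts in replicate 3 of knockout with valproic acid and replicate 3 of wildtype with valproic acid, and 5919 to 10767 counts in the other libraries. The genotypes thus held 1 such library each.

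None of the 4 Notch receptor genes passed the genotype test at the RNA level. Notch1 had 17.6, 17.9 and 21.7 CPM in knockout with valproic acid and 17.5, 17.6 and 16.4 CPM in unexposed knockout, against 17.2, 15.2 and 18.3 CPM in wildtype with valproic acid and 20, 16.9 and 16.6 CPM in unexposed wildtype. Notch2 had 27.2, 23.5 and 31.0 CPM in knockout with valproic acid and 20.5, 23.4 and 22.8 CPM in unexposed knockout, against 28.7, 22.0 and 31.0 CPM in wildtype with valproic acid and 25.5, 20.7 and 25.5 CPM in unexposed wildtype. The genotypes overlapped throughout for both genes. Notch3, which is strongest in the mural cells of vessels, ranged over 8.73 to 14.6 CPM in knockout and 7.26 to 13.5 CPM in wildtype. Notch4, an endothelial receptor, ranged over 4.90 to 8.63 CPM in knockout and 6.39 to 9.04 CPM in wildtype. The log2 fold changes, here and throughout knockout minus wildtype, were 0.06 ± 0.08 (SE) for Notch1, -0.05 ± 0.08 for Notch2, 0.06 ± 0.12 for Notch3 and -0.14 ± 0.11 for Notch4. In a bulk sample a loss in a few cells, fewer cells of a type and less RNA per cell cannot be told apart, and counts summed over a gene do not show whether an exon is missing, so these levels do not check the knockout.

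The rest of the pathway was measured with the same outcome. Rbpj averaged 20.4 ± 1.15 CPM in knockout and 21.2 ± 2.10 CPM in wildtype (SD, n = 6 each), a log2 fold change of -0.06 with a 95% interval of -0.20 to 0.08. Among its targets, the repressor genes Hes1 and Hey1 had log2 fold changes of -0.07 ± 0.10 and -0.03 ± 0.05. Hes5, the target most tied to neural stem cells, was at 9.15, 8.82 and 9.37 CPM in knockout with valproic acid and 15.7, 8.74 and 6.46 CPM in unexposed knockout, against 9.93, 10.8 and 9.38 CPM in wildtype with valproic acid and 11.7, 12.1 and 10.4 CPM in unexposed wildtype. A single knockout library stood above all others for Hes5. The remaining 5 lay below all wildtype libraries, but barely, the nearest being 9.37 CPM in knockout and 9.38 CPM in wildtype. Its log2 fold change was -0.14 with an interval of -0.46 to 0.19. The lowest p among targets was that of Nrarp, a feedback inhibitor of Notch, which averaged 6.26 ± 1.32 CPM in knockout and 7.04 ± 0.670 CPM in wildtype.

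Of 52 Notch pathway genes tested, 24 had positive and 28 had negative log2 fold changes, and 0 had an unadjusted p under 0.05 by edgeR. None passed after Benjamini-Hochberg adjustment by edgeR, DESeq2's Wald test or limma-voom. Over all 17995 genes the same unadjusted threshold took 731, or 4.06%. The median log2 fold change was -0.0025 for the 12 receptor and ligand genes, 0.0031 for the 29 genes of processing and the nuclear complex, and -0.0003 for all tested genes. The 11 tested target genes had a median of -0.07, with 8 negative, and the median was 0.02 when replicate 3 of unexposed wildtype was left out. The 95% intervals bound what was missed: those of 49 of the 52 genes excluded a 1.5-fold change in either direction, and those of 51 excluded a 2-fold change. A p that misses the threshold does not show that a gene was the same in both genotypes.

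Across the transcriptome, 9 of 17995 genes passed the genotype test (0.05%), 6 of them higher (0.0333%) and 3 lower (0.0167%) in knockout. Of the 6 higher genes, Zbtb16, Gm32335, Htr3a, Htr3b and Usp28, followed each other on chromosome 9, and the strongest fall was that of Mzt1 on chromosome 14. In 8 of the 9 genes the 6 knockout and the 6 wildtype libraries did not overlap. Over all tested genes, 34 had no overlap (0.189%), 22 with knockout above (0.122%) and 12 with knockout below (0.0667%). The 9 calls became 14 without replicate 3 of wildtype with valproic acid and 6 without replicate 1 of that group.

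**Figure D1:**
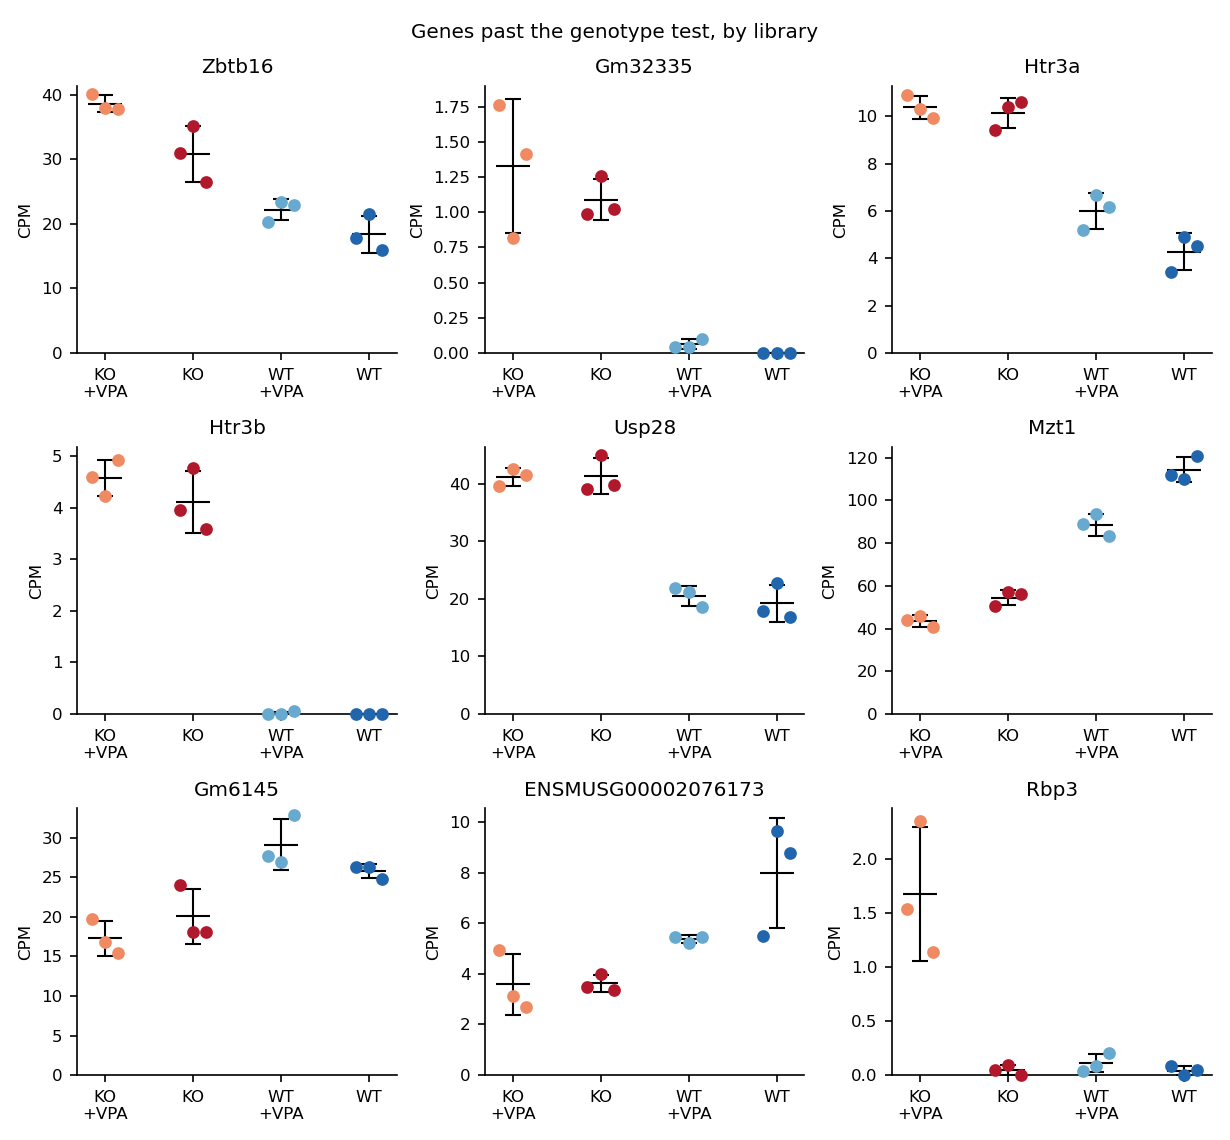
Levels in CPM (vertical axes, each starting at 0) of the 9 genes that passed the genotype test, in the 12 libraries. Points are libraries, horizontal marks are group means and bars are SDs of 3 libraries. Knockout (KO) groups stand left of wildtype (WT) groups, with prenatal valproic acid marked +VPA. In all panels except that of Rbp3 the knockout libraries lie wholly above or wholly below the wildtype libraries.

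The gene with the smallest p was Htr3b (ENSMUSG00000008590), which encodes the second subunit of the 5-HT3 receptor and joins Htr3a in channels of altered conductance. Knockout with valproic acid had 4.60, 4.22 and 4.92 CPM and unexposed knockout had 3.96, 4.78 and 3.59 CPM, against 0, 0 and 0.0510 CPM in wildtype with valproic acid and 0, 0 and 0 CPM in unexposed wildtype. Every knockout library thus held 60 to 112 reads of the gene, while a single read was counted in all 6 wildtype libraries together. The totals of 531 counts in knockout and 1 count in wildtype gave a depth-scaled ratio of 589 with an exact 95% interval of 105 to 23300, which covers counting error alone. The adjusted p was 1.158e-14 by edgeR's quasi-likelihood test.

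Htr3a (ENSMUSG00000032269) was at 10.9, 10.3 and 9.94 CPM in knockout with valproic acid and 9.42, 10.4 and 10.6 CPM in unexposed knockout, against 5.19, 6.67 and 6.17 CPM in wildtype with valproic acid and 3.42, 4.91 and 4.52 CPM in unexposed wildtype. The lowest knockout library lay above the highest wildtype library. Its log2 fold change was 1.01 ± 0.11 (SE), or 2.01-fold, with an adjusted p of 4.152e-06. The rise was 0.79 ± 0.14 with valproic acid and 1.25 ± 0.15 without it on the log2 scale, and this difference did not pass the interaction test (adjusted p = 0.833, edgeR). Gm32335 (ENSMUSG00000111570), a noncoding transcript annotated antisense to Htr3a, had 31, 17 and 32 counts in knockout with valproic acid and 21, 28 and 17 in unexposed knockout, against 1, 1 and 2 in wildtype with valproic acid and 0 in each unexposed wildtype library. The totals of 146 and 4 counts gave a ratio of 40.5 (15.5 to 151), with an adjusted p of 2.294e-07. No source used here gives the strand setting of the counting. Reads of Htr3a and of its antisense partner therefore cannot be told apart.

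Usp28 (ENSMUSG00000032267), a deubiquitinase known for stabilising Myc and for its part in DNA damage signalling, lies next to Htr3b on the opposite strand. It was at 39.5, 42.6 and 41.5 CPM in knockout with valproic acid and 39.1, 44.9 and 39.8 CPM in unexposed knockout, against 21.8, 21.2 and 18.5 CPM in wildtype with valproic acid and 17.9, 22.8 and 16.9 CPM in unexposed wildtype. Its log2 fold change of 1.06 ± 0.07 was a 2.08-fold rise with an adjusted p of 1.106e-10. Zbtb16 (ENSMUSG00000066687), the zinc finger repressor also known as PLZF, stands on the other side of Htr3a. It was at 40.1, 37.9 and 37.8 CPM in knockout with valproic acid and 31.0, 35.1 and 26.4 CPM in unexposed knockout, against 20.3, 23.4 and 22.9 CPM in wildtype with valproic acid and 17.8, 21.5 and 15.9 CPM in unexposed wildtype. The log2 fold change was 0.78 ± 0.07, or 1.71-fold, with an adjusted p of 2.579e-07.

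Beyond this run of genes no neighbour passed the test. Among the 30 tested genes that lie within 15 positions of Htr3a on either side, the 4 named above passed the test and the other 26 had log2 fold changes of -0.47 to 0.32. Nnmt, the next tested gene beyond Zbtb16, had 0.25 ± 0.30, and Zw10, the next beyond Usp28, had 0.07 ± 0.08. Drd2, the dopamine receptor gene of striatal neurons and a near neighbour, averaged 30 ± 7.42 CPM in knockout and 31.7 ± 8.43 CPM in wildtype. Of the 26, 1 gene had an unadjusted p under 0.05, the noncoding Gm40518 at -0.47 ± 0.19.

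**Figure D2:**
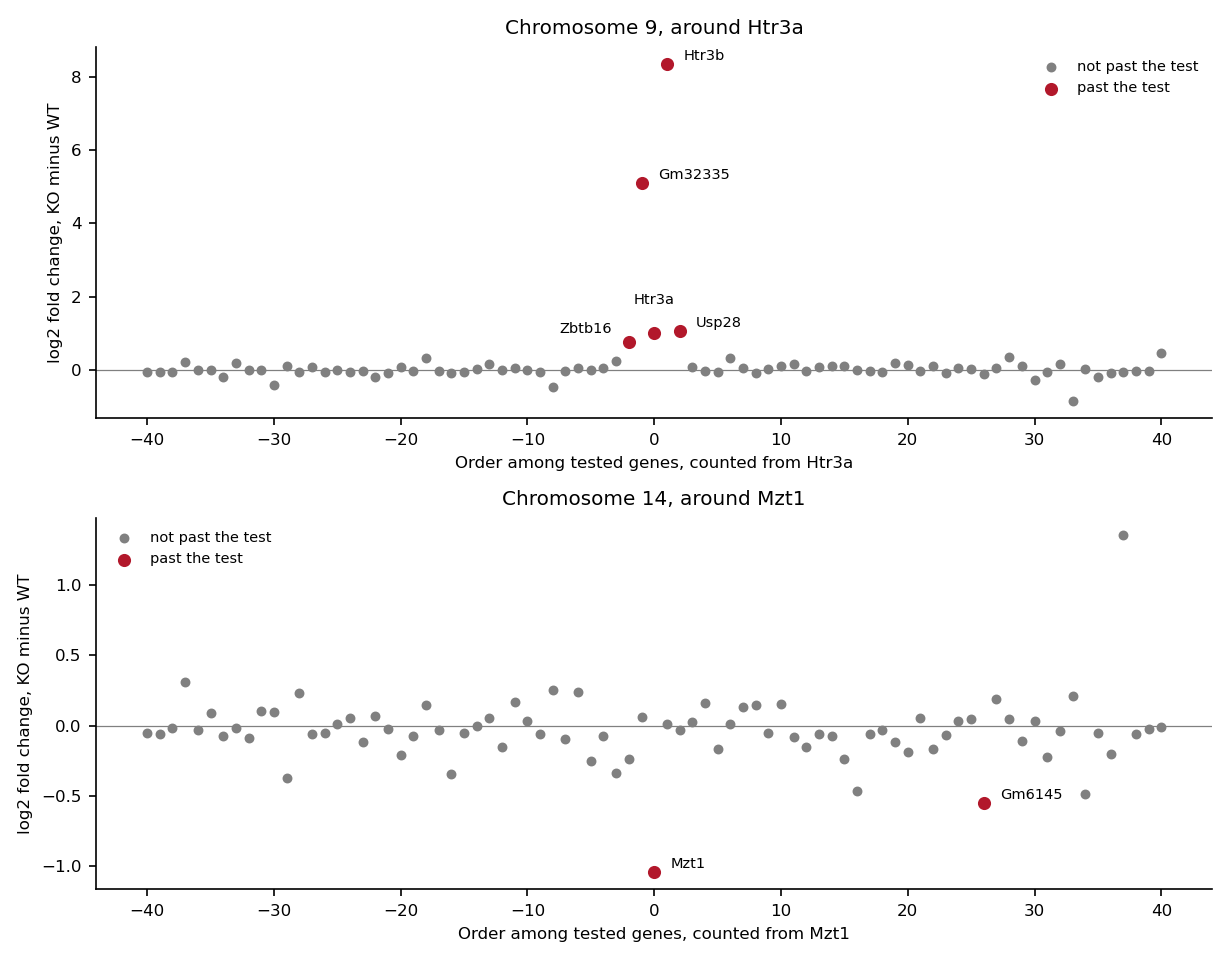
Log2 fold change, knockout minus wildtype (vertical axis), of the tested genes around Htr3a on chromosome 9 (top) and around Mzt1 on chromosome 14 (bottom), in chromosome order (horizontal axis, positions counted from the named gene). Each point is a gene and red points passed the test. The fitted values of Htr3b and Gm32335 rest on near-empty wildtype libraries and are no measure of size. A run of 5 neighbours is raised in the top panel, while in the bottom panel Mzt1 and the more distant Gm6145 are red and lie below 0.

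Mzt1 (ENSMUSG00000033186), a small protein that docks on the gamma-tubulin ring complex and helps it to nucleate microtubules, was the clearest fall. It was at 43.9, 46.1 and 40.7 CPM in knockout with valproic acid and 50.5, 57.0 and 56.1 CPM in unexposed knockout, against 88.9, 93.7 and 83.3 CPM in wildtype with valproic acid and 112, 110 and 121 CPM in unexposed wildtype. The highest knockout library was well under the lowest wildtype library. The log2 fold change was -1.05 ± 0.05, 2.07-fold lower in knockout, with an adjusted p of 1.728e-13. It was -1.03 ± 0.07 with valproic acid and -1.07 ± 0.07 without it.

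No gene beside Mzt1 passed edgeR's quasi-likelihood test. Of the 30 nearest tested genes on chromosome 14, 0 passed it and 5 (16.7%) had an unadjusted p under 0.05, against 4.06% of all tested genes. These were Pcdh9, Dach1 and Pcdh17 with negative and Commd6 and Uchl3 with positive log2 fold changes. Over the 30 the log2 fold changes spanned -0.34 to 0.25. The neighbours on each side were Rpl36a-ps1 at 0.06 ± 0.24 and the mitotic kinase cofactor gene Bora at 0.01 ± 0.16. The lowest p of the 30 was that of Pcdh9, a protocadherin of cell adhesion. It averaged 57.2 ± 3.43 CPM in knockout and 68.3 ± 5.76 CPM in wildtype, a log2 fold change of -0.25 ± 0.06 that did not pass (adjusted p = 0.1528). It did pass by DESeq2's Wald test (adjusted p = 0.0423), with no count filter (0.00713) and without replicate 1 of unexposed knockout (0.0238), and no gene of the 30 passed by limma-voom. Dach1, a transcription cofactor, was at -0.24 ± 0.09 and the protocadherin gene Pcdh17 at -0.15 ± 0.06, each with an adjusted p of 0.9999. The other members of the gamma-tubulin group did not pass either. Of 13 tested, Mzt1 alone was called, and the rest had log2 fold changes of -0.11 to 0.06, among them the core subunit gene Tubg1 at -0.01 ± 0.07 and the second docking protein gene Mzt2 at -0.07 ± 0.08.

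The 250 bases before the annotated starts of Htr3b, Usp28 and Mzt1 are shown because these 3 genes had the smallest p-values and lie at both affected places. They come from RefSeq on build GRCm38.p6 and are written on the strand of the gene. The deposited counts were made on build GRCm39, so these positions belong to the reference table and not to the count table. Capitals mark the letters CCAAT, or ATTGG where they read on the other strand, the box bound by the factor NF-Y. The windows are chr9:48964991-48965240 (minus strand), chr9:48985135-48985384 (plus strand) and chr14:99046137-99046386 (minus strand).
Htr3b: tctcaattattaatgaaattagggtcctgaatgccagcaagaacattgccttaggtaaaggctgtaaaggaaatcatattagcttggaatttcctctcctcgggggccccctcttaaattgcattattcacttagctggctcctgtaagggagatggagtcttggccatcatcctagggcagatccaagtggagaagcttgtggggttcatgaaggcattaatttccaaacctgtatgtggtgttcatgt
Usp28: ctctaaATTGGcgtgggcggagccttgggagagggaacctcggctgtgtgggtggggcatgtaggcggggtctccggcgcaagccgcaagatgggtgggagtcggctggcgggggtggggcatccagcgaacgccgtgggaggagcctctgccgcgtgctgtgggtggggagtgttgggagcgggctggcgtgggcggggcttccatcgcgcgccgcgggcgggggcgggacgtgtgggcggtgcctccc
Mzt1: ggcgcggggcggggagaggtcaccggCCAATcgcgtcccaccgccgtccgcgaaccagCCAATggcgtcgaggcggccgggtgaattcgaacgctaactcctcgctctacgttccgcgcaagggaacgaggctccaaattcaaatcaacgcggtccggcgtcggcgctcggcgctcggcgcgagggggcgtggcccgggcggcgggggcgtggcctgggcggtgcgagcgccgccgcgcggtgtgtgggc

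The windows of Mzt1 and Usp28 were rich in G and C, at 74.0% and 73.2%, with 44 and 26 CpG pairs. That of Htr3b held 44.0% G and C with 1 CpG, against a median of 52.4% and 6 CpG pairs over all 32851 windows of the same length. The box CCAAT was found 2 times before Mzt1, starting 224 and 192 bases before the start, 1 time before Usp28 and 0 times before Htr3b, and 33.8% of all windows held it on either strand. The letters TGGGAA, the core bound by Rbpj, and the longer GTGGGAA, which contains it, were searched on both strands. Neither was in the windows of Htr3b, Usp28, Mzt1, Gm32335, Rbp3 or Gm6145, while 21.6% and 5.42% of all windows held them. Htr3a and Zbtb16 had no entry. A match or its absence in such a window says nothing of binding.

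The remaining 3 genes past the test rested on less. Rbp3 (ENSMUSG00000041534) encodes the retinoid-binding protein of the photoreceptor matrix and is also made in the pineal gland. It had 27, 49 and 26 counts in knockout with valproic acid and 1, 2 and 0 in unexposed knockout, against 1, 2 and 4 in wildtype with valproic acid and 2, 0 and 1 in unexposed wildtype. Only the 3 knockout libraries with valproic acid stood apart, and in the unexposed libraries the fitted log2 fold change was 0.12 ± 1.17. The totals of 105 and 10 counts gave a ratio of 11.7 (6.09 to 25.0), which pools both treatments and whose interval covers counting error alone. The adjusted p was 0.007607, and the interaction had an adjusted p of 0.833. The call ended under limma-voom (adjusted p = 0.175) and without replicate 2 of knockout with valproic acid (0.085), replicate 1 of wildtype with valproic acid (0.119) or replicate 2 of wildtype with valproic acid (0.112).

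Other pineal and photoreceptor markers were looked at beside it. Of 12 on the list, Rbp3 included, 5 were tested, 1 was called (Rbp3) and all 5 had positive log2 fold changes. Their summed level was 15.1 to 18.3 CPM in knockout with valproic acid and 10.3 to 13.2 CPM in unexposed knockout, against 11.1 to 13.4 CPM in wildtype with valproic acid and 10.5 to 13 CPM in unexposed wildtype. These sums hold Rbp3 itself, which was at 1.53, 2.35 and 1.14 CPM in knockout with valproic acid. Tph1, the serotonin-making enzyme of the pineal gland, was at 1.53, 2.88 and 0.835 CPM in knockout with valproic acid and 0.471, 0.315 and 0.418 CPM in unexposed knockout, against 0.527, 0.409 and 0.510 CPM in wildtype with valproic acid and 0.684, 0.386 and 0.348 CPM in unexposed wildtype. It stood high in the same 3 libraries as Rbp3 and did not pass (adjusted p = 0.9999). The melatonin-making enzyme gene Asmt and the regulator Crx were under the count filter, with 63 and 31 counts over all 12 libraries. What part such cells had in the Rbp3 result was not tested.

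Gm6145 (ENSMUSG00000110080), a noncoding transcript on chromosome 14, 26 tested genes beyond Mzt1, fell. It was at 19.7, 16.8 and 15.4 CPM in knockout with valproic acid and 24.1, 18.1 and 18.1 CPM in unexposed knockout, against 27.7, 26.9 and 32.9 CPM in wildtype with valproic acid and 26.3, 26.3 and 24.8 CPM in unexposed wildtype. The gap between the highest knockout and the lowest wildtype library was narrow. The log2 fold change was -0.55 ± 0.09, 1.47-fold lower in knockout, with an adjusted p of 0.0103. In the annotation used it overlaps 9330188P03Rik on the other strand, so its reads are uncertain. The call ended without replicate 2 (adjusted p = 0.0658) or replicate 3 (0.0734) of unexposed knockout, replicate 2 of knockout with valproic acid (0.0572) or replicate 1 of wildtype with valproic acid (0.0592).

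The last call, ENSMUSG00002076173, has no symbol or chromosome in the annotation used. It was at 4.94, 3.12 and 2.68 CPM in knockout with valproic acid and 3.49, 4.01 and 3.35 CPM in unexposed knockout, against 5.47, 5.2 and 5.46 CPM in wildtype with valproic acid and 5.51, 9.65 and 8.78 CPM in unexposed wildtype. Knockout libraries were lower throughout, by a log2 fold change of -0.87 ± 0.16 with an adjusted p of 0.02464. The call ended in 12 of 26 other analyses. Among these were the analyses without replicates 1, 2 or 3 of unexposed knockout (adjusted p = 0.104, 0.117 and 0.124) or replicates 2 or 3 of knockout with valproic acid (0.085 and 0.124). Leaving out replicate 1 of wildtype with valproic acid (0.0731) or replicates 2 or 3 of unexposed wildtype (0.0679 and 0.0656) ended it as well.

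The treatments share no library, so the effect of genotype could be set side by side in both. With valproic acid, 9 genes passed (0.05%), without it 7 did (0.0389%), and 6 passed in both as well as in the test over all libraries. Those 6 were Htr3b, Gm32335, Htr3a, Usp28, Zbtb16 and Mzt1. Fitted by themselves, the unexposed libraries gave 11 calls, and 13 with a replicate block. Both counts hold these 6 and ENSMUSG00002076173, which had an adjusted p of 0.0244 without the block and 0.0252 with it. Over the 15300 other genes that averaged 1 CPM or more, the log2 fold changes with and without valproic acid had a Pearson correlation of -0.02 and a Spearman rank correlation of -0.06, and 47.0% had the same sign. These are descriptions across genes, which are not independent and share 1 estimate of the spread. No gene passed the interaction test (0%) by edgeR, DESeq2's Wald test or limma-voom, and 1075 (5.97%) had an unadjusted p under 0.05 by edgeR.

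**Figure D3:**
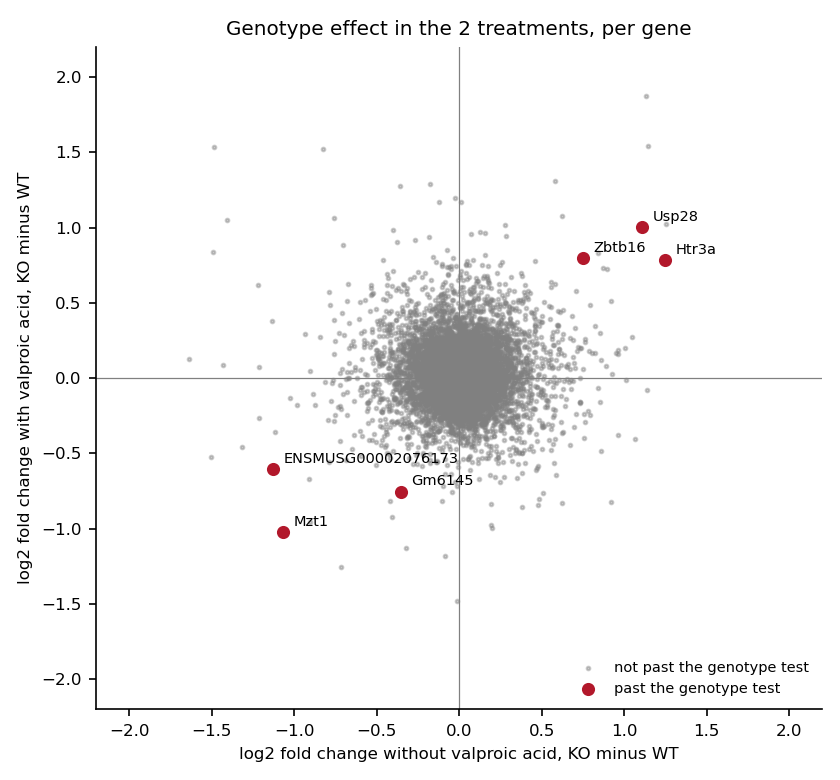
Log2 fold change, knockout minus wildtype, with valproic acid (vertical axis) against the same without it (horizontal axis). Each of the 15301 points is a gene averaging 1 CPM or more, and red points passed the genotype test. The 6 genes beyond the axes, among them Htr3b, are not drawn. The 6 red points drawn lie in the upper right and lower left, and the grey points form a round cloud at the centre.

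Genes just short of the threshold were also few. The 10 smallest p-values after the 9 belonged to Lmo3, Rps28, Atp5k, Rpl38, Rps29, Pcdh9, Rpl37, Romo1, Gm8186 and Rpl37a, with adjusted p of 0.05802 to 0.3268. Lmo3, a LIM-domain transcription cofactor, was at 73.6, 78.2 and 67.6 CPM in knockout with valproic acid and 80.7, 93.6 and 88.5 CPM in unexposed knockout, against 104, 105 and 83.4 CPM in wildtype with valproic acid and 102, 103 and 97.9 CPM in unexposed wildtype. A single wildtype library reached down into the knockout range. Its log2 fold change was -0.31 ± 0.06, and its adjusted p of 0.05802 fell to 0.0129 when that library, replicate 3 of wildtype with valproic acid, was left out. With all 12 libraries Lmo3 passed by edgeR with a mean per group (adjusted p = 0.0332), a sex term (0.0143) or a replicate block (0.0314). It also passed with an offset for transcript length and GC content (0.0208) and by DESeq2's Wald test (0.00858). Under limma-voom and the other scalings it did not pass. Of the others, 5 encode ribosomal proteins, with log2 fold changes of 0.23 to 0.33. Rps28 averaged 244 ± 24.1 CPM in knockout and 200 ± 22.5 CPM in wildtype (SD, n = 6 each), at 0.29 ± 0.06. Ribosomal protein genes have near-identical processed copies in the genome, and no source used here says how such reads were assigned.

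Serotonin genes outside the chromosome 9 run gave no call. Of 13 serotonin receptor genes tested, Htr3b and Htr3a passed, and the others had log2 fold changes of -0.45 to 0.31. Htr2c, a receptor abundant in choroid plexus, had 0.16 ± 0.06, and Htr1a, an inhibitory receptor, had -0.20 ± 0.08, each with an adjusted p of 0.9999 by edgeR. Of the 20 tested markers of interneurons from the caudal eminence, which Htr3a itself belongs to, Htr3a alone was called and the median was 0.02. Beside Htr3a, 1 of the 20 had an unadjusted p under 0.05 by edgeR, and it was lower in knockout. Vip was at 0.10 ± 0.07, Reln at -0.13 ± 0.08, Ndnf at -0.13 ± 0.11 and Lamp5 at 0.01 ± 0.11. The 14 markers of interneurons from the medial eminence had 0 calls by edgeR, DESeq2 or limma-voom, 0 with an unadjusted p under 0.05 and a median of -0.06, with Pvalb at 0.03 ± 0.06 and Sst at 0.01 ± 0.06.

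Over all libraries and with the count filter, lists of other cells of the brain gave Rbp3 as the only call by edgeR or DESeq2. By limma-voom they gave none. The medians were 0.03 for astrocytes, 0.01 for myelinating oligodendrocytes, -0.04 for their progenitors, 0.0045 for microglia, 0.01 for endothelium and -0.02 for mural cells. Those of the forebrain neurons were -0.0042 for upper and -0.05 for deep cortical layers and -0.04 for striatal projection neurons. The striatal median was 0.13 with valproic acid and -0.14 without it, and that of the olfactory bulb list, -0.08 over both, was 0.13 with valproic acid and -0.19 without it. Choroid plexus markers, from the tissue that makes cerebrospinal fluid, had the highest median of the lists: 16 of 16 had positive log2 fold changes and 5 had an unadjusted p under 0.05, against 2.55% of all genes in that direction. Their summed level was 3520 to 4290 CPM in knockout with valproic acid and 2530 to 2670 CPM in unexposed knockout, against 1850 to 3570 CPM in wildtype with valproic acid and 1870 to 2860 CPM in unexposed wildtype. The genotypes overlapped, and the median of 0.37 was 0.60 with valproic acid and 0.05 without it. Without replicate 2 of wildtype with valproic acid it was 0.23. The lowest p was that of the ion channel gene Trpv4 at 0.53 ± 0.15 (adjusted p = 0.6894), and Ttr, the thyroid hormone carrier that dominates the tissue, had 0.39 ± 0.18. Blood cell markers had a median of 0.36 with 7 of 7 positive, which was 0.73 with valproic acid and 0.05 without it, and 0.20 without replicate 3 of unexposed knockout. In the libraries with valproic acid alone, the beta globin gene Hbb-bs (0.67, adjusted p = 0.0215) and Tek, the angiopoietin receptor gene of endothelium (-0.98, adjusted p = 0.0223), passed. In the unexposed libraries alone they had 0.06 and 0.19 (adjusted p = 1 for both). In the fit to all 12 libraries, the contrasts of both genes with valproic acid did not pass (adjusted p = 0.698 and 0.352, edgeR). Their interactions did not pass either (adjusted p = 0.9 and 0.833, edgeR). With no count filter the choroid plexus genes Trpv4 (adjusted p = 0.00585) and Sostdc1 (0.0133) passed, and Sostdc1 also without both libraries low in Xist (0.0371) or without replicate 3 of wildtype with valproic acid (0.0169).

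**Figure D4:**
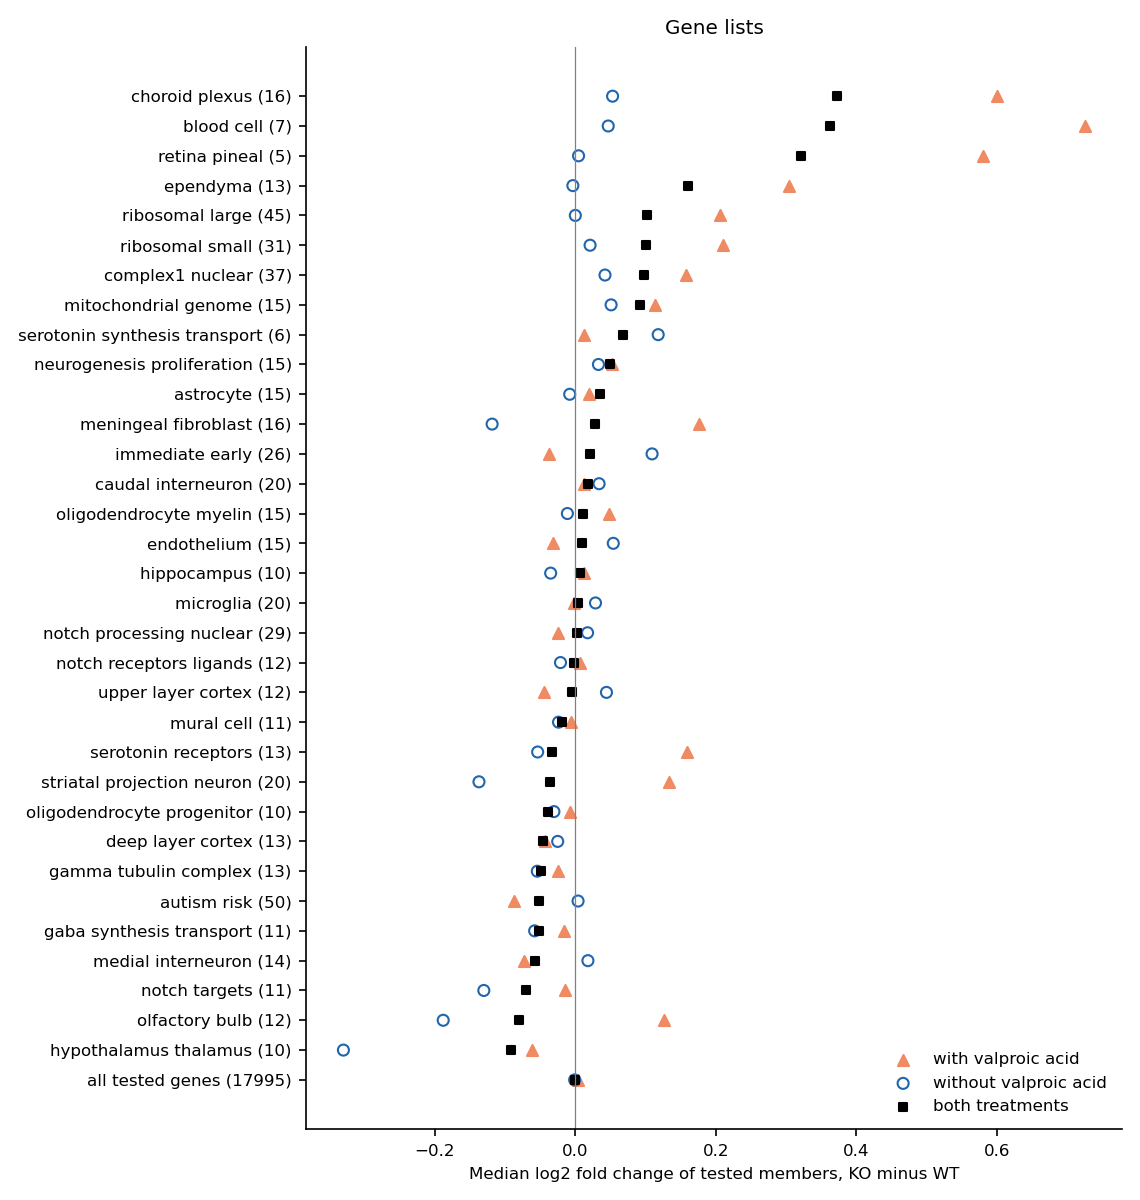
Median log2 fold change, knockout minus wildtype (horizontal axis), of the tested members of each gene list except the sex-linked genes, with the number tested in brackets. Triangles are the libraries with valproic acid, open circles those without it and squares both together. Choroid plexus, blood cell, retina and pineal and ependyma markers lie farthest to the right with valproic acid and within 0.06 of 0 without it.

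Genes for ribosomal proteins and for the nuclear subunits of respiratory complex I leaned upward without a call in the main edgeR fit. Over all 17995 tested genes, 8967 had positive log2 fold changes, and 2.55% were higher and 1.51% lower with an unadjusted p under 0.05. Of 76 ribosomal protein genes, 74 had positive log2 fold changes, 24 were higher with an unadjusted p under 0.05 and 0 passed in the main edgeR fit. By DESeq2's Wald test 6 passed, Rps28 among them, and by limma-voom Rps28 alone. Some passed under other edgeR settings, among them Rps28 with a replicate block (adjusted p = 0.026). With no count filter Rps29 (3.11e-05), Rps28 (0.00106), Rpl38 (0.00463) and Rpl37 (0.0325) passed. The large subunit genes had a median of 0.10, which was 0.21 with valproic acid and 0.0001 without it, and 0.06 without replicate 1 of knockout with valproic acid. The small subunit genes had 0.10, which was 0.21 with valproic acid and 0.02 without it. Summed levels of the large subunit genes were 15700 to 17700 CPM in knockout with valproic acid and 14600 to 15600 CPM in unexposed knockout. They were 13600 to 15500 CPM in wildtype with valproic acid and 14600 to 15700 CPM in unexposed wildtype. Of 37 complex I genes, 34 were positive, 13 were higher with an unadjusted p under 0.05 and 0 passed by any of these tools, with Ndufa5 lowest in p at 0.19 ± 0.05. Their summed level was 4470 to 4610 CPM in knockout with valproic acid and 4460 to 4800 CPM in unexposed knockout. It was 4040 to 4130 CPM in wildtype with valproic acid and 4320 to 4800 CPM in unexposed wildtype. The wildtype libraries with valproic acid thus lay below all others. The 50 autism risk genes leaned the other way, with 44 negative, 0 with an unadjusted p under 0.05, and a median of -0.05. That median was -0.09 with valproic acid and 0.004 without it. Their summed level was 4740 to 4970 CPM in knockout with valproic acid and 4750 to 4960 CPM in unexposed knockout. It was 5060 to 5170 CPM in wildtype with valproic acid, above all other libraries, and 4720 to 5000 CPM in unexposed wildtype.

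These lists differ in transcript length. The median longest transcript was 1059 and 1109 bases for genes of the large and small ribosomal subunits and 1046 bases for complex I, against 3106 bases over all tested genes and 8264.5 bases for autism risk genes. Over genes that averaged 1 CPM or more, those with a longest transcript under 500 bases had a median log2 fold change of 0.09, and 34 of 272 were higher with an unadjusted p under 0.05 while 0 were lower. Those over 8000 bases had a median of -0.04, with 4 of 894 higher and 46 lower. Of all 15307 genes at that level, 2.54% were higher and 1.55% lower at this threshold. With valproic acid these medians were 0.15 and -0.08, and without it they were 0.04 and -0.0031. With an offset for length and GC content, the medians were 0.05 for the large subunit, 0.06 for the small subunit, 0.05 for complex I and -0.02 for autism risk genes. The 6 genes called in both treatments passed with this offset as well.

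**Figure D5:**
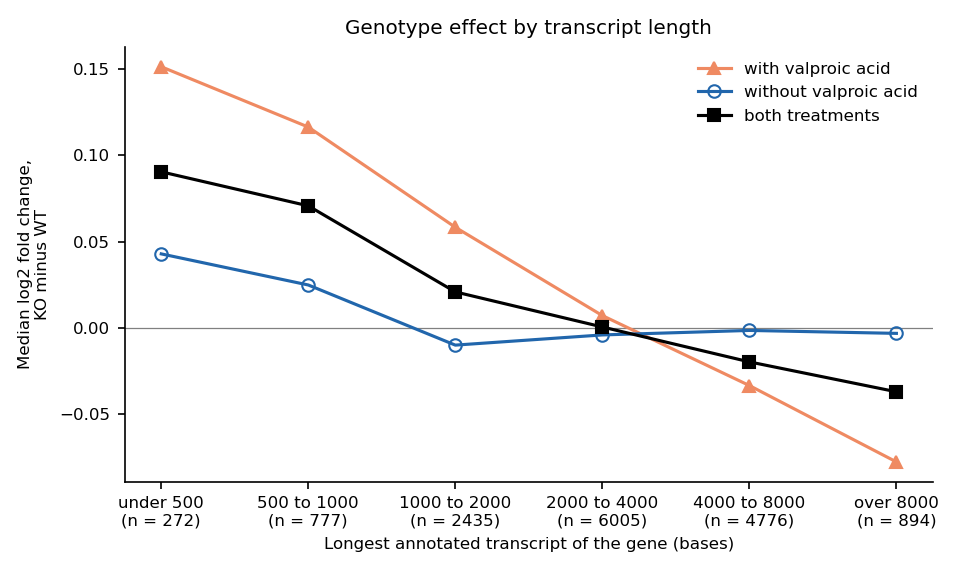
Median log2 fold change, knockout minus wildtype (vertical axis), of genes averaging 1 CPM or more, grouped by the length of their longest annotated transcript (horizontal axis, with the number of genes). Triangles are the libraries with valproic acid, open circles those without it and squares both together. The median runs downward with length with valproic acid and stays within 0.05 of 0 without it.

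Precision was high for most genes. Over 15307 genes that averaged 1 CPM or more, the 95% interval of the log2 fold change had a median half-width of 0.157, and 95% of the estimates were smaller than 0.25 in either direction. The interval excluded a 1.5-fold change both ways for 91.9% of these genes and a 2-fold change for 99.2%.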

How the data were processed

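RNA from mouse brain was sequenced after ribosomal RNA depletion and NEBNext Ultra library preparation, per the labels. HISAT2 and build GRCm39 are named, without versions, in the submitters' processing notes. The counting program, its annotation and its strand setting were not given in the sources used here. Raw gene counts, not normalised, were deposited by the authors for 56748 Ensembl identifiers, of which 22955 had no count. Symbols and gene order came from GENCODE M21 on GRCm38 (52073 identifiers, 99.51% of counts), and promoter sequences from RefSeq on GRCm38.p6 (6 of the 8 called genes with a symbol). The number of per-sample columns not used was 0.

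Genes were kept by filterByExpr with the 4 groups (17995) and scaled by TMM (factors 0.93 to 1.025). Genotype was tested with genotype plus treatment as terms by edgeR 4.0.16's robust quasi-likelihood test in R 4.3.3, two-sided, with a Benjamini-Hochberg threshold of 0.05 over the tested genes. The common biological coefficient of variation was 0.091. The interaction and the genotype effect within each treatment came from fits to the same 12 libraries. Intervals are 95% intervals from the fit. Htr3b, Gm32335 and Rbp3, nearly empty in wildtype, have count ratios with exact binomial intervals, which cover counting error alone. In the text, fitted log2 fold changes of these genes appear for Rbp3 only, in the unexposed libraries and in other analyses. Counts of replicate libraries differed by 4.84 to 23.5 times the chi-square sampling noise per degree of freedom, so none was treated as a duplicate.

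The text names every gene past the test, the 10 next smallest p-values, the Notch receptors, Rbpj, Hes and Hey genes and the lowest-p member of a list described. Further list members, neighbours and other genes of note are named as examples chosen after their values were seen. The 34 lists hold 599 entries. The members and lists were chosen with earlier results of these data known, so no list has a test of its own. Scripts were tested on simulated data. Alternatives used DESeq2 1.42.0 and limma 3.58.1, other scalings, filters and models, a sex term, each treatment alone, each library left out in turn, and an offset for transcript length and GC content and a block for the unexposed libraries chosen after seeing the data. Figures and sequence counts used Python 3.11.15, pandas 2.3.3, numpy 2.4.6, scipy 1.17.1 and matplotlib 3.10.9.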

Additional observations from a re-analysis of the deposited data

Results flagged for a closer look

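In 6 of 56 gene and genotype combinations, each of 6 libraries, the highest or lowest library lay far from the others: its gap to the nearest, over the whole range, exceeded 0.625. Chance gives about 1 in 20 for 6 values from 1 normal distribution. Each set here pools both treatments, and wildtype Htr3b is 0 but for a single count, so that rate is only a rough guide. Hes5 was at 15.7 CPM in replicate 1 of unexposed knockout, against 6.46 to 9.37 CPM in the other knockout libraries. Replicate 3 of knockout with valproic acid was highest for Notch1, at 21.7 CPM against 16.4 to 17.9 CPM, and for Hey2, at 5.63 CPM against 4.12 to 4.46 CPM. Replicate 3 of wildtype with valproic acid was highest of the wildtype libraries for Gm6145, at 32.9 CPM against 24.8 to 27.7 CPM, and lowest for Lmo3, at 83.4 CPM against 97.9 to 105 CPM. For Htr3b the same library held the single wildtype count, at 0.051 CPM against 0 in the others. Both replicates 3 named here are the libraries with few Xist counts.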

How the results depend on the processing

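The 6 genes Htr3b, Mzt1, Usp28, Gm32335, Zbtb16 and Htr3a passed the test in the same direction in all 27 other analyses that gave a value per gene. The 9 calls were 37 with no count filter (30 higher, 7 lower) and 18 by DESeq2's Wald test (13 higher, 5 lower), and both held all 9. They ranged over 6 to 14 when a library was left out, the most without replicate 3 of wildtype with valproic acid, where all 9 remained. Further calls without the filter included Lmo3 (adjusted p = 4.39e-05), Rps28 (0.00106) and Trpv4 (0.00585), and their cause was not tested. Rbp3 was not past the test with a mean per group (log2 fold change 2.04, adjusted p = 1) or without the treatment term (3.44, adjusted p = 1), and ENSMUSG00002076173 was not past it without the treatment term (0.121) or without both libraries low in Xist (0.101). In the unexposed libraries alone, Gm6145 was at -0.35 (adjusted p = 1). No value changed direction past the test. The interaction calls among the 9 genes were 0 throughout. The median log2 fold change of all tested genes was -0.0021 and 0 under other scalings and -0.0055 with no count filter.

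The replicate numbers were not shown to pair the libraries: over all 4 groups, 3 of 18 pairs with the same number had a correlation of deviations over 0.1 (range -0.122 to 0.173; -0.223 to 0.191 for different numbers), and 7 of 12 libraries correlated best with one of their own number. Those 3 were the pairs of unexposed knockout with unexposed wildtype (0.122, 0.144 and 0.173), against -0.125 to 0 for different numbers there, so the unexposed libraries were also fitted alone with a replicate block, an alternative chosen after seeing the data. It gave 13 calls, 8 higher and 5 lower, and 11 without the block, with Cyp2g1 and Rps29 gained. 7 of the 9 genes passed in both. Both fits also called Lars2 (log2 fold change -0.76, adjusted p = 3.75e-05 by edgeR without the block) and mt-Th (1.05, 0.00269). They called ENSMUSG00000119584 (-1.02, 0.00341) and ENSMUSG00000095041 (0.42, 0.0153) as well. None of these was among the 7 genes that passed in the unexposed contrast fitted to all 12 libraries. With a replicate block over all 12 libraries, 10 genes passed, 8 of the 9 among them, with Lmo3 and Rps28 gained and ENSMUSG00002076173 lost (adjusted p = 0.062). For low genes the count limits what can be seen.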
